A study of Mus musculus with 6 samples.

Results

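The first day of the time course, E11.5 against E10.5, was examined across genes in GFP+ cells sorted from the dorsal spinal cord of *Wnt1-cre*; *Rosa26mTmG* mouse embryos. The genes are those with a transcript cluster (the probes of one locus) that names 1 gene: 14996 of 23332 clusters on the arrays, for 14860 genes, each represented by its brightest cluster. Of 6 arrays (Affymetrix mouse exon arrays, log2 signals), 2 were made at E11.5 and 2 at E10.5, and the other 2 at E12.5 entered the estimate of the spread. Embryos of both stages carried the same alleles and had no treatment. Cre made under *Wnt1* control switches the *Rosa26* reporter from tdTomato to membrane GFP, and cells that once expressed Cre, and all of their descendants, keep it. The sort therefore takes dorsal progenitors, the neurons born from them and *Wnt1*-lineage neural crest alike, and the number of embryos per array is not given in the sources used here. The labels do not tell if same-stage arrays represent different litters, and the standard errors and p-values measure the spread between these arrays, which may be technical.

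Over this day the dorsal spinal cord passes from a field made largely of dividing progenitors to one with a growing mantle of young neurons. Progenitors near the midline roof plate receive Wnt and BMP signals, express patterning factors such as *Pax3* and *Olig3*, and leave the cell cycle through proneural bHLH factors. Their daughters switch on class-defining transcription factors, the commissural classes extend axons toward the floor plate, and receptors, channels and synaptic proteins accumulate as they mature.

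The genes furthest higher at E11.5 in both replicate numbers included several of neurons: the nuclear receptor *Nr4a2*, the adhesion protein *Slitrk1*, the secreted glycoprotein *Reln*, the guidance receptor *Robo2*, the glutamate receptor subunit *Gria2* and the polysialyltransferase *St8sia4*. The neuropeptide *Sst* and the cyclin *Ccnd2* were among those furthest lower. Single genes did not pass the test over the whole table. The moderated test of limma gave 0 of 23332 clusters at an adjusted p under 0.05 (0.0% called; smallest adjusted p = 0.9999), and at an unadjusted p under 0.05 it gave 465 (1.99%). Among the genes 58 were higher (0.39%) and 42 lower (0.283%) at that unadjusted threshold. By definition 5%, over both directions together, fall under it on average where nothing differs, and these shares lay below that. This fit ignores the replicate number, although deviations of same-numbered arrays correlated between stages (r = 0.606 to 0.622). With the number as a block among clusters that name 1 gene, 919 of 14996 lay under it. The smallest adjusted p of limma was then 0.299. Without the E10.5 replicate 2 array, which leaves E10.5 to the array that differed most from the rest, 250 clusters were called (173 higher, 77 lower). An exact permutation test of 2 arrays against 2 cannot give a p below 0.333. Values are therefore described by their size, their standard error and whether both replicate numbers showed them, and "higher" and "lower" below are measurements that did not pass a test.

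One E10.5 array, replicate 1, differed from the rest. Over all clusters its mean correlation with the other arrays was 0.89, against 0.948 to 0.955 for the others, and it had the narrowest spread of signals (SD 1.66, against 1.78 to 1.96). A gene was therefore counted as agreeing when its E11.5 signal lay at least 0.5 (log2) above, or below, its E10.5 signal between the replicate 1 arrays and again between the replicate 2 arrays. By this count 137 genes were higher (0.922% of 14860) and 111 lower (0.747%), while 128 were at least 0.5 higher in one number and at least 0.5 lower in the other. The numbers contributed unequally. Between the replicate 1 arrays 2094 genes were higher and 3132 lower by at least 0.5, and between the replicate 2 arrays 498 were higher and 411 lower. Across genes the differences of the 2 numbers correlated weakly (Pearson r = 0.05, and 0.1 after quantile normalization; genes are not independent replicates). The median difference over all genes was -0.07, with -0.16 in number 1 and 0.01 in number 2. Counting any size, 2874 genes (19.3%) were higher in both numbers, 4362 (29.4%) lower in both and 7624 (51.3%) went opposite ways. Over the 7153 genes above the detection limit the median was 0.06. In number 1 it was 0.11 over these genes and -0.32 over the other 7707, in number 2 both were within 0.02 of 0. A gene was above the detection limit when its mean signal at the higher stage passed 5.85, the level that 95% of 841 clusters of chemosensory receptors (olfactory, vomeronasal, taste, trace amine) stayed under on average. The corresponding 95th percentile was 6.18 on the E11.5 replicate 1 array and 5.38 on the E11.5 replicate 2 array, against 6.59 on the E10.5 replicate 1 array and 5.38 on the E10.5 replicate 2 array.

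**Figure D1:**
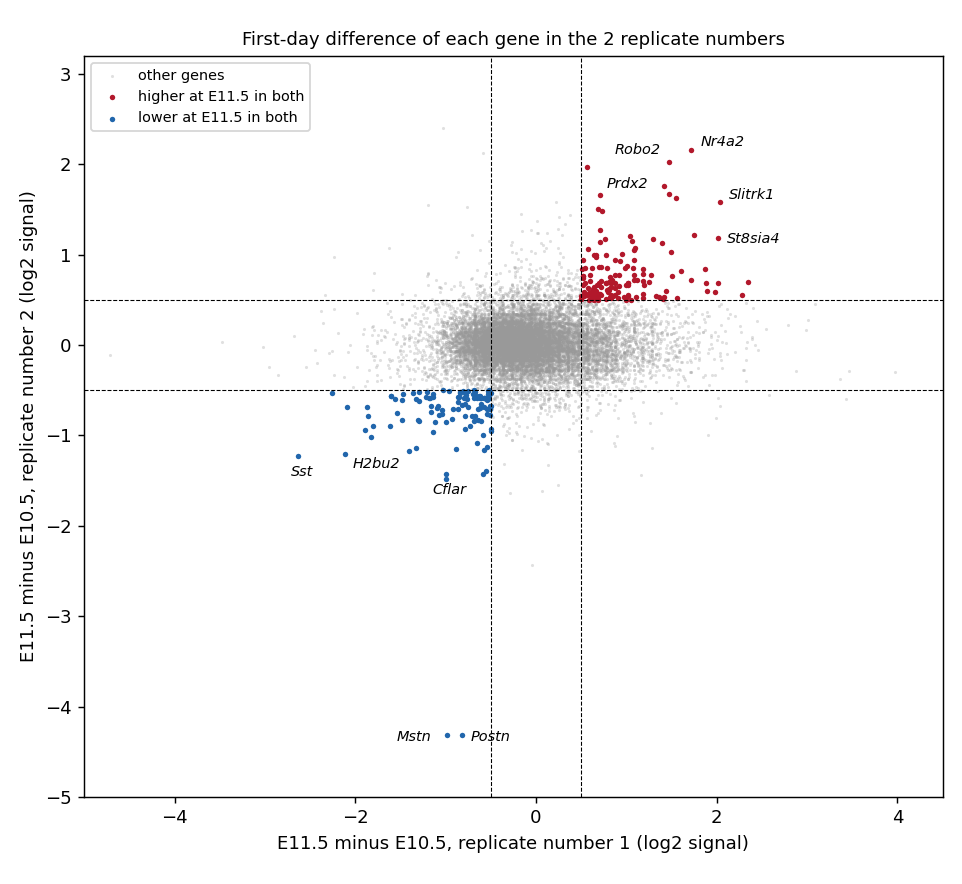
Each point is 1 of 14860 genes, with its E11.5 minus E10.5 difference in log2 signal between the replicate 1 arrays on the horizontal axis and between the replicate 2 arrays on the vertical axis; dashed lines mark 0.5. The cloud is wider along replicate number 1, and the 137 genes higher in both numbers (red) and 111 lower in both (blue) lie in opposite corners.

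The 2 directions differed in how bright their genes were. Of the agreeing genes, 115 of 137 higher ones were above the detection limit (1.61% of the genes above it), and 53 of 111 lower ones (0.741%). The receptors of other tissues, which have no known role in these cells, give a measure of background. Of 839 such genes 2 agreed as higher (0.238%) and 24 as lower (2.86%), against 135 (0.963%) and 87 (0.62%) of the other 14021 genes. Such receptors thus made up 24 of the 111 lower genes and 2 of the 137 higher ones. The arrays of the 2 stages did not overlap for 121 of the higher and 80 of the lower agreeing genes. Over all genes, 8.84% had both E11.5 arrays above both E10.5 arrays and 7.2% had both below. The genes nearest the threshold were *Cypt2* (0.585 and 0.5), *Emb* (-0.501 and -0.675) and *Vasn* (-0.502 and -0.531) inside it, and *Kctd5* (0.5 and 0.513), *Thumpd1* (-0.523 and -0.499) and *Cpe* (1.003 and 0.498) outside it.

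*Nr4a2* encodes an orphan nuclear receptor best known for its part in making midbrain dopamine neurons, and it is also expressed in the spinal cord. It had log2 signals of 7.67 and 8.87 on the E11.5 replicate 1 and 2 arrays, against 5.95 and 6.71 on the E10.5 replicate 1 and 2 arrays. Every E11.5 array was above every E10.5 array, and the log2 difference of 1.94 (standard error 0.47) corresponds to a 3.84-fold higher signal. At E12.5 it stood at 9.4 and 9.53. The smaller of its same-numbered differences, 1.72, was the largest of all genes. Values below follow the same order, replicate 1 and then replicate 2.

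The promoter windows of 3 genes at the high end of the ranking (*Nr4a2*, *Slitrk1*, *Reln*) and of the gene at its low end (*Sst*) are shown, from 250 bases before to 50 bases after the RefSeq start site, to show the upstream sequence of the genes with the furthest values (RefSeq, GRCm38.p6). They lie at chr2:57123954-57124253, chr14:108914190-108914489, chr5:22344656-22344955 and chr16:23890795-23891094, all on the minus strand. Capitals mark matches on either strand to 5 short motifs: the TATA box TATAAA, the cAMP response element TGACGTCA, the Nr4a site AAAGGTCA and the E-boxes CAGATG and CAGCTG.
Nr4a2: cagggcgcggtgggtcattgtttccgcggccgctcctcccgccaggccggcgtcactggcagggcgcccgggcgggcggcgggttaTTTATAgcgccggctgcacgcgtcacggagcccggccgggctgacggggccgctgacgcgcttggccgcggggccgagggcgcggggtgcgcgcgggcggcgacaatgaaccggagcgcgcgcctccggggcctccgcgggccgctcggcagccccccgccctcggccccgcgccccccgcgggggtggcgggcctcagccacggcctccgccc
Slitrk1: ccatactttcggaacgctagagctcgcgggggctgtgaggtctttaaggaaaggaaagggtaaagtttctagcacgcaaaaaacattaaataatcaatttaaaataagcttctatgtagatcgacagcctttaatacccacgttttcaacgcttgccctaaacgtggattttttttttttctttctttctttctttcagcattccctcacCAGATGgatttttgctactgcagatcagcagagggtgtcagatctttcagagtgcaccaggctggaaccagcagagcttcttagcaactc
Reln: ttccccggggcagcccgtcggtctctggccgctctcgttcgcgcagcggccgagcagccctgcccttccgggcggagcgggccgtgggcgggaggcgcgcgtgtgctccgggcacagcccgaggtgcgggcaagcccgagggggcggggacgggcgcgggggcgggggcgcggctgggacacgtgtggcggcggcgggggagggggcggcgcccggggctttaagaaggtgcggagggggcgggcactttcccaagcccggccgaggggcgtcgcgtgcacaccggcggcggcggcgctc
Sst: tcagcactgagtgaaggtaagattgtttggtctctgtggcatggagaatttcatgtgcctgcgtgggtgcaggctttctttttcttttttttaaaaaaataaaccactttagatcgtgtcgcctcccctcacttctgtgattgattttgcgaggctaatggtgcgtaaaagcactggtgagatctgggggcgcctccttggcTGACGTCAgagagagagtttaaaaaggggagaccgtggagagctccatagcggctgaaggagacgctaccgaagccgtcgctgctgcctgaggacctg
The *Sst* window held a full cAMP response element starting 48 bases before the start site, a motif found in 1.79% of all 32851 promoter windows. The *Slitrk1* window held the E-box CAGATG (17.2% of windows) starting 40 bases before its start, and the *Nr4a2* window a reversed TATA box (13.6%) starting 164 bases before. The *Reln* window held no match to the 5 motifs. Among 141 windows of 100 agreeing genes that were higher, 1.42% held the cAMP response element, 1.42% the Nr4a site, 13.5% CAGATG and 17% CAGCTG. In the 110 windows of 96 lower genes these shares were 3.64%, 2.73%, 12.7% and 14.5%. Over the 14927 windows of genes on the arrays they were 2.36%, 1.19%, 13.5% and 16.1%, so that CAGATG and CAGCTG in the agreeing genes were near that share, and the other shares rest on 2 to 4 windows each. A match is a description of the letters only.

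Genes of axon guidance and cell adhesion were among the 15 furthest higher. *Robo2*, a receptor for the repellent Slit proteins, had 8.52 and 8.74 at E11.5, against 7.05 and 6.71 at E10.5 (difference 1.75, standard error 0.32, 3.36-fold). *Reln*, which encodes the secreted protein reelin that positions migrating neurons, had 7.77 and 8.03 at E11.5, against 6.22 and 6.4 at E10.5 (1.59, standard error 0.32, 3.02-fold). Both arrays of each stage lay close together for these genes, and the stages did not overlap. *Slitrk1*, a leucine-rich repeat membrane protein of neurites and synapses, had 6.29 and 7.29 at E11.5, against 4.25 and 5.71 at E10.5 (1.81, standard error 0.57). Its E10.5 signals lay below the detection limit, so the size of its difference rests on levels near background. *St8sia4*, one of the enzymes that add polysialic acid to the adhesion molecule NCAM, had 7.31 and 7.43 at E11.5, against 5.3 and 6.24 at E10.5 (1.6, standard error 0.43, 3.03-fold). *Lrrn3*, another leucine-rich repeat membrane protein, had 8.62 and 9.28 at E11.5, against 7.32 and 8.1 at E10.5 (1.24, standard error 0.43).

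Of 49 commissural receptors and axon adhesion genes, 46 were measured and 35 were above the detection limit. In this list 4 agreed as higher (*Robo2*, *Ntm*, *Nrcam* and *Boc*) and 0 as lower, against 0.922% and 0.747% of all genes. The median difference was 0.23 (0.24 in number 1 and 0.19 in number 2), against -0.07 over all genes. Over the 35 above the detection limit it was 0.24, against 0.06 over all genes above it. In the list 23 of 46 members were higher in both numbers while 5 were lower in both, against 19.3% and 29.4% of all genes. The same values of all genes are to be set beside the lists below. All genes include those not above the detection limit, whose median in number 1 was -0.32. Of genes above the limit, 1.61% agreed as higher and 0.741% as lower. Shares higher or lower in both at any size were not computed for them, so these contrasts are not matched for brightness. *Ntm*, an IgLON adhesion protein, had 7.31 and 7.12 at E11.5, against 5.7 and 6.29 at E10.5 (1.21, standard error 0.38). *Nrcam*, an L1-family adhesion protein of axons, had 9.08 and 9.15 at E11.5, against 8.18 and 8.56 at E10.5 (0.75, standard error 0.31). *Boc*, a receptor through which commissural axons respond to Sonic hedgehog, had 7.22 and 7.73 at E11.5, against 6.25 and 7.2 at E10.5 (0.75, standard error 0.4). The E11.5 replicate 1 signal of *Boc* exceeded the E10.5 replicate 2 signal by little. The netrin receptor *Dcc* was already bright, with 10.96 and 10.9 at E11.5, against 10.32 and 10.82 at E10.5, and almost all of its difference of 0.36 (standard error 0.34) came from number 1. *Robo3*, which lets commissural axons reach the midline, differed by 0.4 (standard error 0.3), *Cntn2* by 0.24, *Robo1* by 0.15 and *L1cam* by 0.03.

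Of 31 measured secreted and membrane guidance cues, 1 agreed as higher (*Reln*) and 0 as lower. The median was -0.01 (0.25 over the 17 above the detection limit), against -0.07 over all genes (0.06 above the limit). The floor plate attractant *Ntn1* had 5.82 and 5.33 at E11.5, against 5.63 and 5.38 at E10.5, below the detection limit, and the repellent *Slit2* had 8.95 and 9.23 at E11.5, against 8.81 and 9.45 at E10.5. Among 20 measured cadherins and protocadherins 2 agreed as higher, against 0.922% of all genes. *Pcdh10* had 6.6 and 7.21 at E11.5, against 5.81 and 6.36 at E10.5 (0.82, standard error 0.37). *Cdh8* had 5.32 and 5.67 at E11.5, against 4.45 and 4.73 at E10.5, with every signal below the detection limit. The neural cadherin *Cdh2* differed by 0.14 (standard error 0.36).

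**Figure D2:**
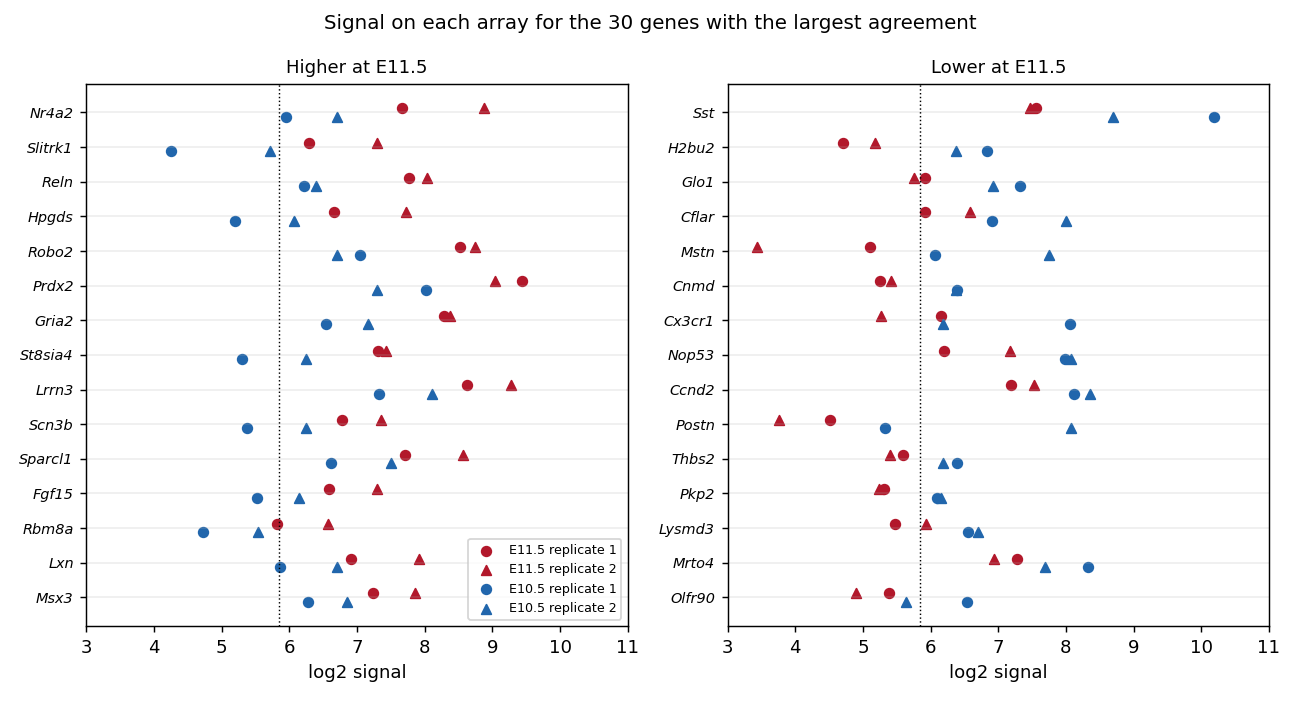
The log2 signal on each array (circles, replicate 1; triangles, replicate 2) at E11.5 (red) and E10.5 (blue) is plotted for the 15 genes higher and the 15 lower at E11.5 with the largest agreement; the dotted line is the detection limit of 5.85. The rule of the choice asked for stages that do not overlap, and many of the lower genes have their E11.5 signals left of the limit.

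Genes of synapses and excitability were next. *Gria2*, the AMPA receptor subunit that makes the channel impermeable to calcium once edited, had 8.29 and 8.38 at E11.5, against 6.54 and 7.16 at E10.5 (1.49, standard error 0.33, 2.8-fold). *Gria3*, another AMPA subunit, had 6.11 and 6.92 at E11.5, against 5.4 and 5.26, below the detection limit, at E10.5 (1.18, standard error 0.38). These were the 2 of 23 measured glutamate, GABA and glycine receptor subunits that agreed, both as higher, against 0.922% of all genes. The other subunits included many dim genes, since 7 of the 23 were above the detection limit, and *Glra2* had 4.74 and 4.7 at E11.5, against 5.23 and 4.67 at E10.5. Of 27 voltage-gated channel genes 4 agreed as higher and 0 as lower, against 0.922% and 0.747% of all genes. Their median was 0.08 (-0.19 in number 1 and 0.27 in number 2), against -0.07 over all genes. Over the 10 above the detection limit it was 0.38, against 0.06 over all genes above it. *Scn3a*, a sodium channel of immature neurons, had 9.12 and 8.85 at E11.5, against 7.87 and 8.15 at E10.5 (0.97, standard error 0.31). Its companion subunit *Scn3b* had 6.77 and 7.36 at E11.5, against 5.38 and 6.24 at E10.5 (1.26, standard error 0.45). *Kcnip1*, which binds A-type potassium channels, differed by 1.11 (standard error 0.37), with E10.5 signals of 5.25 and 4.8, below the detection limit. *Scn1a* differed by 0.72 with all signals below the limit.

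Of 27 synaptic vesicle and release genes 3 agreed as higher and 0 as lower, against 0.922% and 0.747% of all genes. The median was 0.11 (0.31 over the 20 above the detection limit), against -0.07 over all genes (0.06 above the limit). *Syt1*, the calcium sensor of release, had 8.27 and 8.23 at E11.5, against 6.84 and 7.63 at E10.5 (1.02, standard error 0.4). *Dnm3*, a dynamin of vesicle recycling, differed by 0.82 (standard error 0.31), and the small GTPase *Rab3c* by 0.76 (standard error 0.47). *Snap25*, a core protein of vesicle fusion, had 9.61 and 9.72 at E11.5, against 9.67 and 9.71 at E10.5. Among 19 neurexins, cerebellins and their partners, *Nrxn3* and *Cbln1* agreed as higher and none as lower. *Nrxn3*, a presynaptic adhesion receptor, had 7.1 and 7.17 at E11.5, against 6.43 and 6.17 at E10.5 (0.84, standard error 0.33). *Cbln1*, the secreted synaptic organizer that the study followed from these arrays, had 6.85 and 7 at E11.5, against 6.23 and 6.15 at E10.5. Since the study chose *Cbln1* on these samples, its direction is not independent evidence. *Nrxn2* went opposite ways in the 2 numbers (-0.96 and 0.43).

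Genes expressed in most young neurons were higher as a list, by small amounts. Of 36 measured early pan-neuronal genes 22 were higher in both numbers and 4 lower in both, against 19.3% and 29.4% of all genes. The median was 0.33 (0.36 in number 1 and 0.27 in number 2), against -0.07 over all genes, and after quantile normalization number 1 gave 0.15 and number 2 gave 0.33. All genes are dimmer than this list, of which 33 members were above the detection limit. The counts higher and lower in both are therefore not matched for brightness. Over these 33 the median was 0.43, against 0.06 over all genes above the limit. In number 1 the median of all genes was 0.11 above the limit and -0.16 without regard to it. Of the list, 2 members reached 0.5 in both numbers. *Nsg1*, a protein of neuronal endosomes, had 9.43 and 9.39 at E11.5, against 7.42 and 8.7 at E10.5 (1.35, standard error 0.47). *Dpysl4*, of the collapsin response mediator family, had 8.38 and 8.33 at E11.5, against 7.77 and 7.75 at E10.5 (0.6, standard error 0.28). The well-known markers that follow did not reach 0.5 in both numbers. The microtubule proteins *Dcx* and *Stmn2* differed by 0.28 and 0.37 and had no signal below 9.89 on the 4 arrays. The RNA-binding proteins *Elavl3* and *Elavl4* differed by 0.44 and 0.74, that of *Elavl4* mostly from number 1 (1.27 and 0.21). *Rbfox3* (NeuN) differed by 0.3, and tau (*Mapt*) by 0.26 with all 4 signals below the detection limit. The growth cone protein *Gap43* was lower in both numbers (-0.58 and -0.23).

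**Figure D3:**
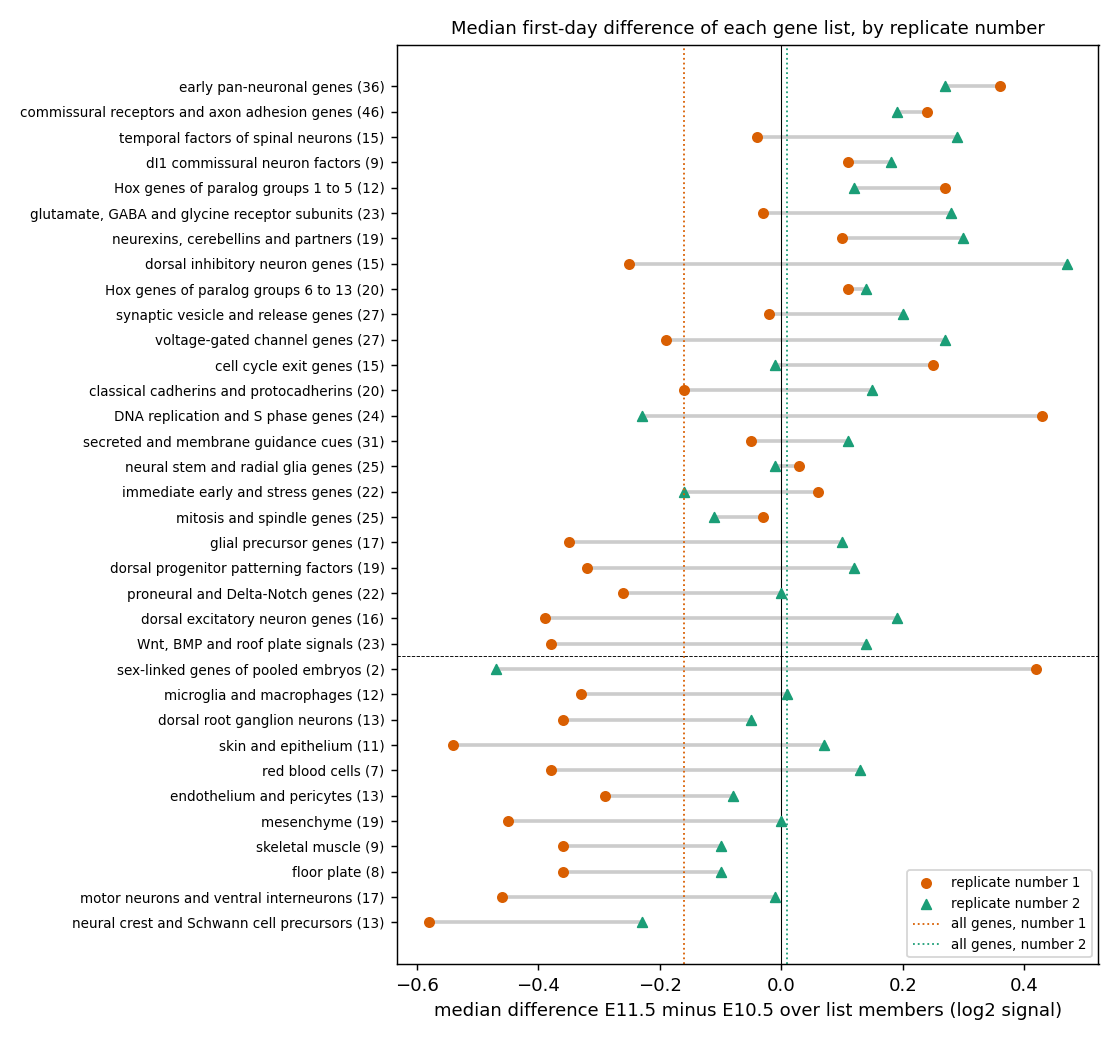
For each gene list (number of measured members in brackets) the median E11.5 minus E10.5 difference in log2 signal is given for replicate number 1 (circles) and replicate number 2 (triangles), with dotted lines for all genes; lists below the dashed line are markers of other cells and of embryo sex. Early pan-neuronal genes (0.36 and 0.27) and commissural receptors (0.24 and 0.19) lie to the right of 0 in both numbers, and neural crest markers (-0.58 and -0.23) to the left in both. They share this with other lists. The dI1 factors, the neurexin list and both *Hox* lists also lie to the right in both. Floor plate, skeletal muscle, endothelial, dorsal root ganglion, motor neuron and mitosis genes also lie to the left in both.

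Of 16 dorsal excitatory neuron genes 2 agreed as higher and 0 as lower, against 0.922% and 0.747% of all genes. The median was -0.15 over the 16 and 0.18 over the 11 above the detection limit, so its direction turned without the dim members. Besides *Nr4a2* this was *Slc17a6*, the transporter that loads vesicles with glutamate, with 9.21 and 8.88 at E11.5, against 7.49 and 8.16 at E10.5 (1.22, standard error 0.35). Among the class-defining factors *Lmx1b* differed by -0.34 (-0.59 and -0.1) and *Prrxl1* by -0.23 (-0.37 and -0.1). *Tlx3* differed by -0.22 from opposite directions (-0.71 and 0.26), with means below the detection limit. *Isl1*, a marker of dI3 neurons here, differed by 0.65 (standard error 0.36), from 0.16 in number 1 and 1.15 in number 2. Of 15 dorsal inhibitory genes none agreed in either direction. *Gad2*, which makes GABA, came nearest, with 6.72 and 7.25 at E11.5, against 6.4 and 5.91 at E10.5 (0.83, standard error 0.36). *Gad1* and *Pax2* went opposite ways in the numbers, by -0.55 and 0.8 and by -0.72 and 0.73. At E12.5 *Gad2* stood at 8.47 and 8.87 and *Pax2* at 7.9 and 8.12, so that both E12.5 arrays were above all 4 earlier ones. *Slc32a1* differed by -0.42 (-0.68 and -0.15). *Lhx1*, *Lhx5* and *Lbx1* went opposite ways in the numbers and differed by 0.03, 0.1 and 0.18. The means of *Lhx5* and *Lbx1* were below the detection limit.

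The dI1 factors were measured for all 9 members, and all 9 were above the detection limit in these sorted dorsal cells. None reached 0.5 in both numbers, and 6 were higher in both and 0 lower in both, against 19.3% and 29.4% of all genes, dim ones included. The median was 0.17 (0.11 in number 1 and 0.18 in number 2). Over all genes above the detection limit it was 0.06, and 0.11 in number 1, the same as for the dI1 factors. After quantile normalization the median of the dI1 factors was 0.06, with -0.05 in number 1 and 0.17 in number 2. *Lhx9* had 8.83 and 8.77 at E11.5, against 8.56 and 8.36 at E10.5 (0.34, standard error 0.29). *Lhx2* had 7.91 and 7.86 at E11.5, against 7.81 and 7.61 at E10.5 (0.17, standard error 0.29). *Barhl2* and *Barhl1* differed by 0.07 and 0.04. At E12.5 *Lhx9* stood at 7.82 and 7.66 and *Lhx2* at 7.13 and 7.09, below all 4 earlier arrays.

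Temporal factors mark neurons by birth date. The late factor *Nfia* agreed as higher, with 7.19 and 7.68 at E11.5, against 6.67 and 6.91 at E10.5 (0.65, standard error 0.32). Its relative *Nfib* went opposite ways (-0.11 and 0.95). The early factors *Onecut2* and *Onecut1* were lower in both numbers, by -1.26 and -0.13 and by -0.73 and -0.26. *Zfhx3* differed by 0.13. Of 15 measured, 1 agreed as higher and 0 as lower, with a median of 0.2.

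Progenitor and cell cycle genes showed few agreeing differences. Of 25 neural stem and radial glia genes 23 were above the detection limit, none agreed in either direction, and the median was -0.03. *Sox2* had 9.12 and 9.58 at E11.5, against 9.08 and 9.89 at E10.5, and *Nes*, *Hes5* and *Slc1a3* differed by -0.06, -0.38 and 0.05. The difference of *Hes5* came from number 1 (-0.77). *Fabp7*, a radial glia protein, had 10.77 and 10.92 at E11.5, against 9.94 and 10.66 at E10.5 (0.55, standard error 0.34). Of 19 dorsal patterning factors 2 agreed as higher and 0 as lower, against 0.922% and 0.747% of all genes. *Msx3*, a homeobox factor of dorsal progenitors, had 7.23 and 7.86 at E11.5, against 6.28 and 6.85 at E10.5 (0.98, standard error 0.36). *Pax3* had 8.71 and 9.27 at E11.5, against 8.17 and 8.73 at E10.5 (0.54, standard error 0.37), and here the stages overlapped. *Olig3*, of the most dorsal progenitors, was lower in both numbers (-0.11 and -0.48), and *Pax7* differed by -0.38 (-0.73 and -0.02). Of 22 proneural and Delta-Notch genes none agreed. *Neurog1*, *Neurog2*, *Ptf1a* and *Dll1* differed by -0.31, -0.14, -0.43 and 0.15, and *Myt1*, which promotes neuronal differentiation, by 0.67 (standard error 0.38). Almost all of the *Neurog1* difference (-0.6 and -0.01) and most of that of *Myt1* (1.12 and 0.22) came from number 1. The means of *Ptf1a* were below the detection limit. *Fgf15*, a growth factor made by neural progenitors, was 1 of the 15 genes furthest higher, with 6.58 and 7.3 at E11.5, against 5.52 and 6.14 at E10.5 (1.11, standard error 0.39).

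Of the D-type cyclins, which carry cells into S phase, *Ccnd2* and *Ccnd1* went opposite ways. *Ccnd2* had 7.19 and 7.53 at E11.5, against 8.12 and 8.35 at E10.5 (-0.87, standard error 0.3), and stood at 6.26 and 6.4 at E12.5. *Ccnd1* had 8.24 and 8.91 at E11.5, against 6.97 and 8.13 at E10.5 (1.02, standard error 0.46), and stood at 7.96 and 8.26 at E12.5. The E11.5 arrays were below both E10.5 arrays for *Ccnd2* and above both for *Ccnd1*. *Ccnd2* and *Ccnd1* were the agreeing members, 1 each way, of 15 measured genes in the list of cell cycle exit. That list holds D-type cyclins as well as inhibitors. *Ccnd3* was lower in both numbers (-0.48 and -0.18) but did not agree at 0.5. The inhibitors *Cdkn1b* and *Cdkn1c* differed by 0.08 and 0.15. The 24 measured DNA replication genes gave a median of 0.43 in number 1 and -0.23 in number 2, and 15 of them went opposite ways, against 51.3% of all genes. Only *Tk1*, thymidine kinase, agreed (4.1 and 4.11 at E11.5, against 5.2 and 4.81 at E10.5), with every signal below the detection limit. *Mcm2*, a subunit of the replicative helicase, differed by 0.28 (standard error 0.36). Of 25 mitosis genes none agreed, and the median was -0.09. In this list 14 members went opposite ways, near the 51.3% of all genes. *Mki67* had 8.8 and 9.85 at E11.5, against 10.11 and 9.8 at E10.5, so that its difference of -0.63 (standard error 0.4) came from number 1. *Top2a* and *Cdk1* both differed by -0.11, and *Cenpe* by -0.78 (-1.31 and -0.25). The medians of both cell cycle lists changed sign when single arrays were left out. Leaving out an array sets 1 replicate number of a stage against both of the other. A difference between the numbers then enters the median. The mitosis list had mean signals of 7.09 and 7.97 at E11.5, against 7.23 and 8.09 at E10.5. Its same-numbered medians were -0.03 and -0.11. Without E10.5 replicate 1 the medians were -0.36 for replication and -0.62 for mitosis, and without E10.5 replicate 2 they were 0.69 and 0.48. Without E11.5 replicate 1 they were 0.41 and 0.35, and without E11.5 replicate 2 they were -0.11 and -0.5.

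**Figure D4:**
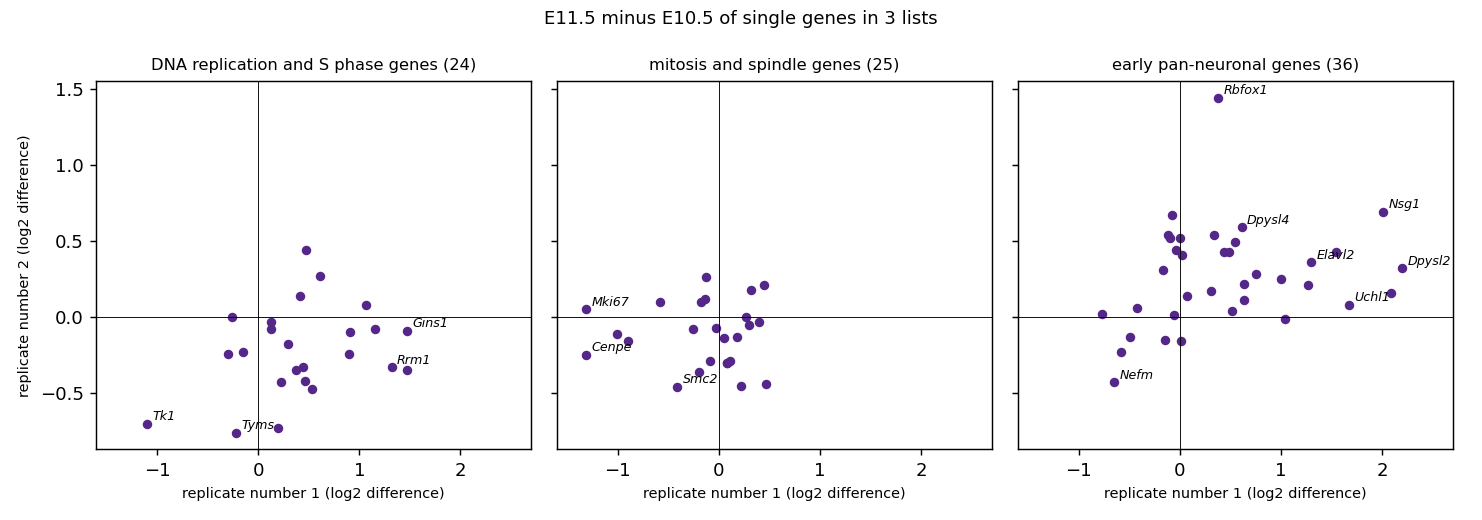
Each point is a gene, placed by its E11.5 minus E10.5 log2 difference in replicate number 1 (horizontal) and number 2 (vertical), for DNA replication, mitosis and early pan-neuronal genes. Replication and mitosis genes fall on both sides of 0, and 22 of 36 early pan-neuronal genes lie above 0 in both numbers. This compares with 19.3% of all genes, which are dimmer than that list.

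Positional and signalling genes gave a few agreeing members. Of 20 *Hox* genes of paralog groups 6 to 13, which pattern the thoracic to caudal cord, 3 agreed as higher and 0 as lower. These compare with 0.922% and 0.747% of all genes. The median of the 20 was 0.12 (0.38 over the 13 above the detection limit), against -0.07 over all genes (0.06 above the limit). *Hoxa9* had 8.27 and 8.48 at E11.5, against 7.19 and 7.54 at E10.5 (1.01, standard error 0.3). *Hoxd9* had 5.86 and 5.88 at E11.5, against 5.32 and 5.03 at E10.5, with E11.5 signals just above the detection limit. *Hoxc10* had 5.33 and 5.92 at E11.5, against 4.76 and 3.95 at E10.5, and its means were below the limit at both stages. *Hoxd10* went opposite ways (-0.22 and 1.02). Of 12 *Hox* genes of groups 1 to 5 none agreed, and *Hoxb2* differed by 0.67 (standard error 0.34). Axial level of the dissected cord was not recorded in the labels, and its part in these values was not tested. Of 23 Wnt, BMP and roof plate genes 1 agreed, as lower, and the median was -0.24 (0.11 over the 10 above the detection limit). This was *Rspo3*, a secreted amplifier of Wnt signals, with 6.63 and 6.69 at E11.5, against 7.21 and 7.37 at E10.5 (-0.63, standard error 0.3), and 5.78 and 6.1 at E12.5. *Wnt1* itself differed by 0.51 (standard error 0.44), *Gdf7* by 0.05, *Lmx1a* by -0.12 and *Bmp7* by -0.27. *Wnt3a* and *Wnt3* went opposite ways, with means below the detection limit. Of 17 glial precursor genes *Nfia* alone agreed, as higher.

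The low end of the ranking was led by *Sst*, the neuropeptide somatostatin, with 7.56 and 7.47 at E11.5, against 10.19 and 8.7 at E10.5 (-1.93, standard error 0.52). At E12.5 it stood at 8.16 and 8.82, within the range of the earlier stages. *H2bu2*, a histone H2B gene, had 4.71 and 5.18 at E11.5, against 6.83 and 6.38 at E10.5 (-1.66, standard error 0.35). *Cflar*, an inhibitor of caspase-8, had 5.91 and 6.58 at E11.5, against 6.9 and 8 at E10.5 (-1.21, standard error 0.45). *Glo1*, which detoxifies methylglyoxal, had 5.91 and 5.75 at E11.5, against 7.32 and 6.92 at E10.5 (-1.29, standard error 0.36). The ribosome assembly factors *Nop53* (-1.35) and *Mrto4* (-0.9), the desmosomal protein gene *Pkp2* (-0.86) and *Lysmd3* (-0.92) were also among the 15 furthest lower. *Olfr90*, an olfactory receptor, was another (-0.95). The stress factor *Ddit3* (CHOP) was the 1 of 22 immediate early and stress genes that agreed, with 7.96 and 8.13 at E11.5, against 8.89 and 8.83 at E10.5 (-0.81, standard error 0.29). *Fos* and *Jun* went opposite ways in the numbers, and *Egr1* differed by -0.43 (standard error 0.38).

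Several of the lower genes are markers of other cells. *Mstn*, a muscle growth inhibitor, had 5.1 and 3.43 at E11.5, against 6.07 and 7.75 at E10.5, and *Postn*, a matrix protein of mesenchyme, had 4.51 and 3.76 at E11.5, against 5.33 and 8.08 at E10.5. Most of both differences (-2.65 and -2.57) came from the E10.5 replicate 2 array. *Cnmd*, a cartilage protein (-1.05), and *Thbs2*, a matrix protein (-0.79), had E11.5 signals below the detection limit on both arrays. The rest of those lists did not follow at this size: 1 of 9 skeletal muscle genes and 1 of 19 mesenchyme genes agreed, with medians of -0.22 and -0.19. The defining markers *Myod1*, *Myog* and *Myf5* of muscle had mean signals below the limit at both stages, while *Col1a1* and *Col1a2* of mesenchyme differed by -0.27 and -0.44. *Cx3cr1*, a chemokine receptor of microglia, had 6.16 and 5.26 at E11.5, against 8.06 and 6.19 at E10.5, but *Aif1* and *Csf1r* of the same cells were below the limit. The arrays measure RNA of the whole sort, in which fewer cells of a type and less RNA per cell cannot be told apart.

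Markers of neural crest and Schwann cell precursors, part of the *Wnt1* lineage, were lower in both numbers for 8 of 13 measured genes, and higher in both for 1, against 29.4% and 19.3% of all genes. The median was -0.4 (-0.58 in number 1 and -0.23 in number 2). None reached 0.5 in both. Such a count was not particular to this list. Of 13 endothelial genes, 0 of them above the detection limit, 9 were lower in both and 1 higher in both. For 9 skeletal muscle genes these were 7 and 0, and for 17 motor and ventral neuron genes 9 and 1. For 7 red cell genes they were 2 and 1. *Sox10* had 6.18 and 5.83 at E11.5, against 6.78 and 6.19 at E10.5 (-0.48, standard error 0.4), and *Ngfr* differed by -0.4. *Cdh6*, which is also a cadherin of crest cells, differed by -0.66 (-0.27 and -1.05). Of 13 dorsal root ganglion genes 1 agreed, *Ntrk2*, as higher, with 8.36 and 9.15 at E11.5, against 7.44 and 8.38 at E10.5. This receptor of brain-derived neurotrophic factor is also made in the spinal cord, and the ganglion gene *Prph* was below the detection limit. None agreed among 17 motor and ventral neuron, 8 floor plate, 13 endothelial, 7 red cell or 11 epithelial genes, of which 4, 1, 0, 2 and 1 were above the limit. *Mnx1*, *Chat*, *Shh*, *Foxa2*, *Pecam1*, *Cdh5*, *Kdr* and *Epcam* had means below it at both stages. The Y-linked genes *Eif2s3y* and *Kdm5d* were above 5.85 on all 4 arrays and differed by 0.03 and -0.08, from opposite directions in the 2 numbers. The part of these cells in the other results was not tested.

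The other genes of the 15 furthest higher have roles outside the lists. *Hpgds*, which makes prostaglandin D2 from its precursor, had 6.66 and 7.73 at E11.5, against 5.19 and 6.07 at E10.5 (1.57, standard error 0.47). *Prdx2*, an antioxidant peroxidase, had 9.44 and 9.04 at E11.5, against 8.02 and 7.29 at E10.5 (1.59, standard error 0.4). *Sparcl1*, a secreted matrix protein of brain, differed by 1.09 (standard error 0.47), *Lxn*, an inhibitor of carboxypeptidases, by 1.13 (standard error 0.49), and *Rbm8a*, of the exon junction complex, by 1.07 (standard error 0.42). The E10.5 signals of *Rbm8a* (4.73 and 5.53) lay below the detection limit. The following were picked after their values were seen, from the rest of the 248 agreeing genes. *Mab21l2*, a gene needed for eye and body wall development in mice, had 8.4 and 8.68 at E11.5, against 7.7 and 7.17 at E10.5 (1.1, standard error 0.35). *Cacng2*, stargazin, which carries AMPA receptors to the membrane, had 6.89 and 7.01 at E11.5, against 6.14 and 5.84 at E10.5 (0.96, standard error 0.37). *Sorcs3*, a sorting receptor of neurons, had 8.22 and 7.94 at E11.5, against 7.29 and 7 at E10.5 (0.93, standard error 0.3). *Actl6b*, the neuronal subunit of the BAF chromatin complex, differed by 0.58 (standard error 0.29). On the lower side *Vcan*, a matrix proteoglycan that repels axons and crest cells, had 7.12 and 7.24 at E11.5, against 7.72 and 8.68 at E10.5 (-1.01, standard error 0.38). *Igdcc3* and *Prtg*, immunoglobulin-like membrane proteins of the same family, differed by -0.66 and -0.52.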

How the data were processed

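RNA of GFP+ dorsal spinal cord cells was measured on GeneChip Mouse Exon 1.0 ST arrays. The authors deposited log2 signals per transcript cluster; the submitters' processing notes name oligo and mm9, and the normalization settings are not given in the sources used here. Array medians lay between 5.33 and 5.73. The values were used as deposited, with no filter. Platform annotation named 1 gene for 14996 clusters and several for 1019, and did not list 7317; 135 genes had more than 1, and their brightest cluster by mean signal was used. The 156 genes named by rule were the 15 each way with the largest agreement (stages not overlapping, above the detection limit), up to 4 agreeing members of each list each way (smallest p, or the member with the smallest p where none agreed) and the defining markers; others named are marked as such. The members and lists (34 lists, 594 of 691 genes measured) were chosen with earlier results of these data known.

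The comparison used limma 3.58.1 in R 4.3.3, with a mean per stage over the 6 arrays and Benjamini-Hochberg adjustment over 23332 clusters. Tested on simulated data of 23332 clusters, with 50 clusters shifted at each size, the fit found 0 of those shifted by 1 (log2), 9 at a shift of 2, 33 at 3 and 42 at 4, and made 5 false calls. The simulated arrays had independent noise, with no difference shared by same-numbered arrays and no array set apart, unlike the deposited ones. Those counts therefore hold for that setting only. The number of arrays limits the precision. Alternatives were a replicate block, clusters naming 1 gene, the 4 arrays alone, quantile normalization, median centring, an intensity trend, the detection limit, other thresholds and leaving out each array. Promoters were searched with Python 3.11.15. Figures were drawn with matplotlib 3.10.9.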

Additional observations from a re-analysis of the deposited data

How the results depend on the processing

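No cluster was called by limma under any setting (0 throughout) except without the E10.5 replicate 2 array, and the counts called when leaving out each array ran between 0 and 250. Clusters naming 1 gene at an unadjusted p under 0.05 numbered 107. They numbered 433 with the replicate block, 919 with the replicate block among clusters that name 1 gene, 893 with the block, those clusters and quantile normalization (added after the data were seen), 257 after quantile normalization, 59 with the 4 arrays alone, and between 41 (without E11.5 replicate 1) and 2549 (without E10.5 replicate 2) when leaving out each array. The replicate number is only a label here, although the deviations of same-numbered arrays from their stage means correlated between stages (r = 0.606 to 0.622 across genes); the block changed no adjusted call.

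Of the 137 genes agreeing as higher, 15 did so at 1 in both numbers and 55 did so at 0.5 in all 4 pairs of arrays. Of the 111 agreeing as lower these were 5 and 38, with 53 above the detection limit. After centring each array on its median 183 genes agreed as higher and 71 as lower, and after quantile normalization 144 and 91. Lists with a median above 0 numbered 14 of 34. They were 22 in replicate number 2 alone, and between 12 and 28 when leaving out each array, the highest without the E10.5 replicate 1 array. The early pan-neuronal median was 0.33. It was 0.42 after centring, 0.27 in number 2 alone, 0.43 above the detection limit, and between 0.22 and 0.36 when leaving out each array. The median of commissural receptors was 0.23. It was 0.17 after quantile normalization, 0.32 after centring, and between 0.18 and 0.24 when leaving out each array. The mitosis median of -0.09 was 0.00 after centring and -0.03 in number 1 alone, and between -0.62 and 0.48 when leaving out each array. That of replication, 0.05, ran between -0.36 and 0.69. In medians without an array, a difference between the replicate numbers is mixed with that between the stages. Agreement could not be computed without an array, since it needs both numbers.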
